A study of Mus musculus with 18 samples.

Results

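The proliferation and mitosis genes were a list of 56 mouse genes, 21 that act at the entry into and during DNA replication and 35 that act in mitosis, picked by gene name. Of these, 52 had an entry in the table of 57234 entries, 20 S-phase and 32 mitotic genes, and Cdc6, Foxm1, Melk and Espl1 were not analysed here. All 52 had at least 0.5 FPKM (a level in fragments scaled to transcript length and library size) in 3 or more libraries, as did 14765 of the 28934 entries with a reference gene. The Top2a entry was shared with a second gene, Gm23451.

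The 18 libraries were made from total RNA of the forestomach, the squamous-lined first part of the mouse stomach, of male C57BL/6 mice, and their labels give the cell type as esophageal cancer. The study calls the sequenced tissue tumors, whereas the labels describe it as forestomach in all groups, controls included. The 6 CCR2-/- NMBA and 6 wild-type NMBA libraries came from mice gavaged with N-nitrosomethylbenzylamine (NMBA), a carcinogen of the esophagus, at 0.25 mg/kg 2 times a week for 5 weeks. The 3 CCR2-/- control and 3 wild-type control libraries came from mice gavaged with the vehicle, 1% carboxymethyl cellulose, and the tissue was harvested when week 25 ended. CCR2-/- mice carried the Ccr2tm1Ifc allele, which removes this chemokine receptor from the whole body and not from a single cell type. The wild-type mice were bought at 6 weeks of age, and the genetically modified mice were used at ages of 4 to 8 weeks. The labels do not say that each library is a separate mouse, so the p-values measure the spread between libraries. In bulk tissue, fewer dividing cells and less RNA per dividing cell cannot be told apart.

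A cell that commits to division first assembles the MCM helicase on replication origins, together with Cdt1, Cdc45 and the GINS complex, and raises the supply of nucleotides; these genes are transcribed by E2F factors from late G1. Genes of the spindle, the kinetochore and cytokinesis follow in G2 and M, and their promoters often hold a cell cycle homology region (CHR) and CCAAT boxes, bound by the DREAM and B-MYB-FOXM1 complexes and by NF-Y. In squamous epithelium, dividing cells are found mainly in the basal layer, and the proteins of Mki67 and Top2a are used as histological markers of dividing cells.

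Promoter sequence from RefSeq (GRCm38.p6, 250 bases before to 50 bases after each start) was matched to 43 of the 52 genes, 3 of them with more than 1 window. A gene counted as a match if any of its windows held the motif, whereas the shares of all promoters count each window separately. The S-phase and the mitotic genes were searched for 3 motifs, without use of the expression values. A CHR, the letters TTTGAA or alternatively TTCGAA on either strand, was found in 21 of 27 mitotic (77.8%) and 3 of 16 S-phase genes (18.8%), against 19.2% of 32851 promoters in the table. An E2F motif, here the letters TTCCCGC or alternatively the letters TTGGCGC or alternatively the letters TTCGCGC on either strand, with overlapping matches counted separately, was found in 5 of 27 mitotic (18.5%) and 7 of 16 S-phase genes (43.8%), against 8.07% of all promoters. CCAAT, on either strand, was found in 20 of 27 mitotic (74.1%) and 11 of 16 S-phase genes (68.8%), against 37.4% of all promoters. A match describes these letters only and is not evidence of binding.

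Stretches of 100 bases from 6 promoters are printed to show these motifs in genes whose values are described next, with every CHR, CCAAT and E2F match in capitals, read 5′ to 3′ on the strand of the gene. The first 2 are S-phase genes with E2F motifs: Mcm5, a subunit of the replicative helicase (chr8:75109329-75109428, plus strand), and Rrm1, the large subunit of ribonucleotide reductase (chr7:102441575-102441674, plus strand).
Mcm5: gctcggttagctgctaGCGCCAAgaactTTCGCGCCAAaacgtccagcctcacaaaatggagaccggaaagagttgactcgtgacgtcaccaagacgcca
Rrm1: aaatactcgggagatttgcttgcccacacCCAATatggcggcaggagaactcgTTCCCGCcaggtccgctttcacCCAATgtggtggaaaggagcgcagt
The other 4 are mitotic genes with a CHR: Cdk1, the kinase that drives entry into mitosis (chr10:69352913-69353012, minus strand), Kif11, the kinesin that separates the spindle poles (chr19:37376282-37376381, plus strand), Cdc20, an activator of the anaphase-promoting complex (chr4:118437344-118437443, minus strand), and Ube2c, its ubiquitin-conjugating enzyme (chr2:164769829-164769928, plus strand).
Cdk1: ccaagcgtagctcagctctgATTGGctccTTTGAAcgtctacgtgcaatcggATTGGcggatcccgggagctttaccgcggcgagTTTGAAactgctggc
Kif11: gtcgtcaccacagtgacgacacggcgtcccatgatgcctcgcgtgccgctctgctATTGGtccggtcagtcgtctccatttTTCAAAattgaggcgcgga
Cdc20: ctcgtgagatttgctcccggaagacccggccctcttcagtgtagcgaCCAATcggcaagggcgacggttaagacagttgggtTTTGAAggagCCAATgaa
Ube2c: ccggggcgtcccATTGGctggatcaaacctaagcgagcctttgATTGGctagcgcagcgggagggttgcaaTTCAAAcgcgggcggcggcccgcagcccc
In Kif11, Cdc20 and Ube2c the CHR lay at positions -19, -18 and -29 from the start, each with a CCAAT box further upstream. Cdk1 held a CHR at -71 and at -15.

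Both marker genes were found in every library. Mean levels over the 18 libraries ran from 0.484 FPKM for Mcm10, a replication initiation factor, to 29.0 FPKM for Pcna, the sliding clamp of DNA polymerases. Mki67 averaged 7.67 FPKM and Top2a, the topoisomerase that untangles replicated DNA, 6.57 FPKM. Among S-phase genes Pcna was followed by Rrm1 at 11.4 FPKM and Mcm7 at 7.81 FPKM, and among mitotic genes Cdc20 (13.8 FPKM) and Ccnb2, cyclin B2 (7.85 FPKM), led. Relative depth, inferred from the step between low FPKM values and not from read counts, differed 1.38 times between the deepest and the shallowest library. The libraries correlated pairwise at r of 0.924 to 0.985. Ccr2 itself, which checks the labels, was at 0 to 0.0798 FPKM in CCR2-/- NMBA and 0 to 0.0546 FPKM in CCR2-/- control libraries, against 1.3 to 3.43 FPKM in wild-type NMBA and 1.83 to 2.37 FPKM in wild-type control libraries. The forestomach label was only in part borne out by the markers, since transcripts of the glandular stomach summed to at least 4628 FPKM in all 18 libraries, beside those of squamous epithelium.

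**Figure D1:**
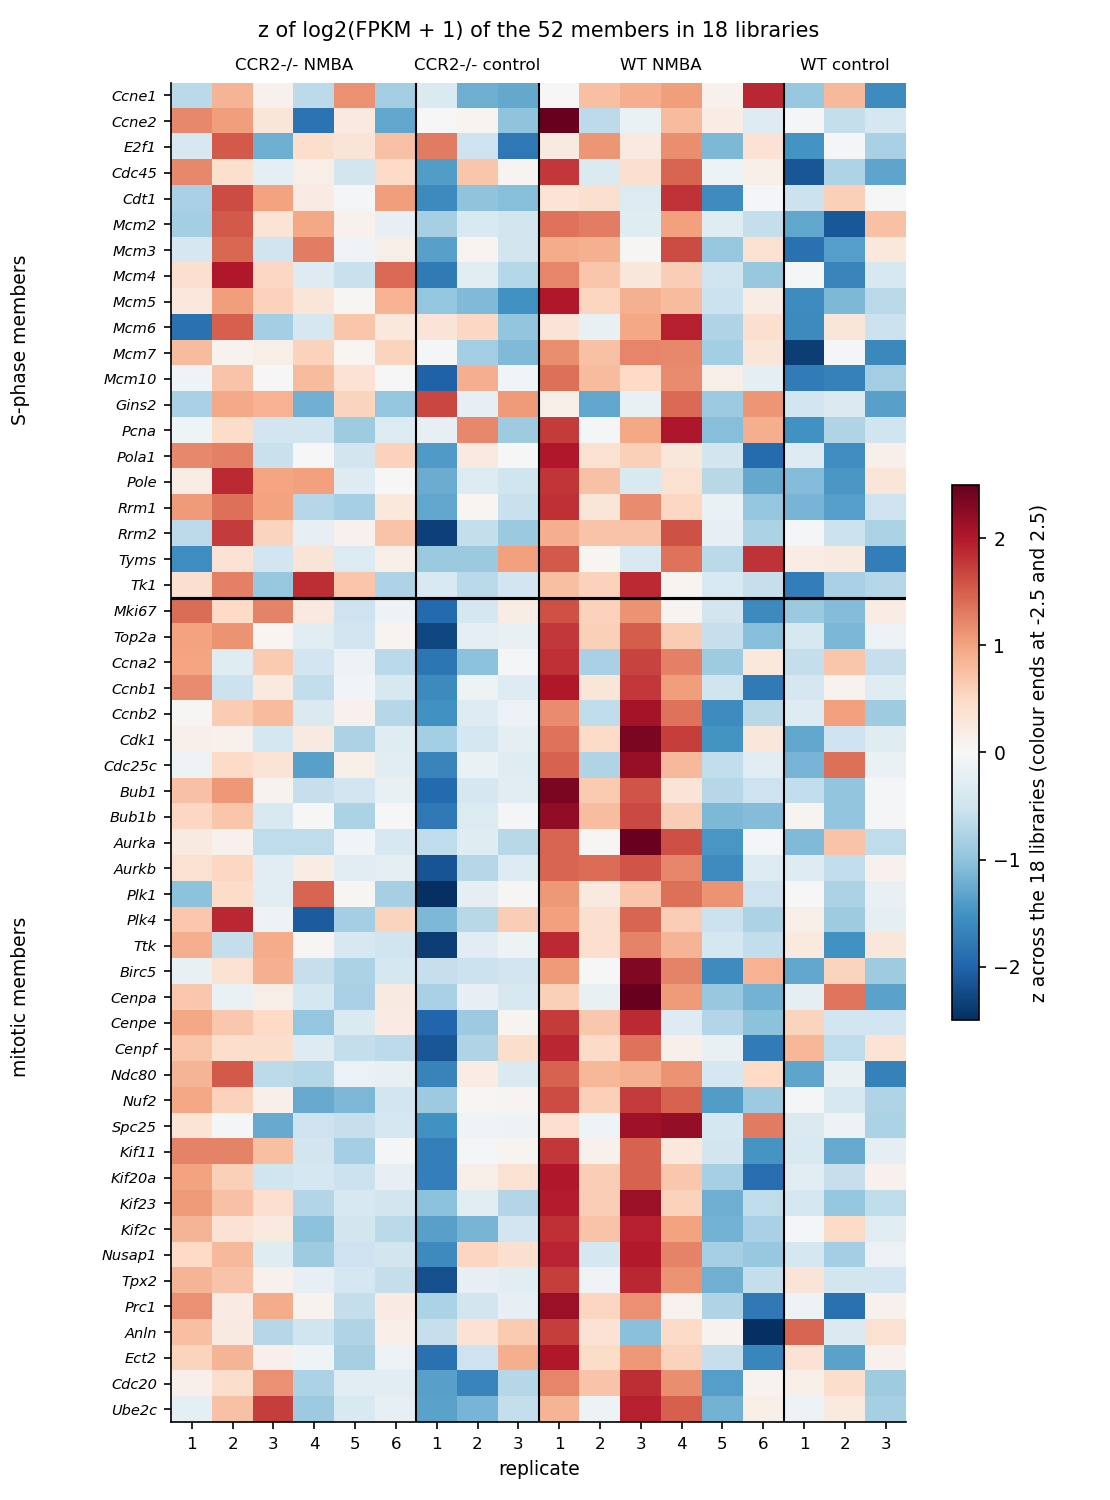
Heat map of the 52 genes (rows, S-phase above mitotic) in the 18 libraries (columns, by group), with colour giving the z score of log2(FPKM + 1) over the libraries. Within wild-type NMBA, replicates 1 and 3 hold the highest value of 30 of 32 mitotic genes, and within the CCR2-/- controls replicate 1 holds the lowest of 30 of 32.

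The first question was whether the genes differed between NMBA-treated and vehicle-treated forestomach in wild-type mice. Nearly all stood slightly higher under NMBA and none passed the test. The log2 fold change was above 0 for 51 of 52 genes, where 48.2% of all genes tested were above 0, with a median of 0.23 for these genes and -0.01 for all genes. The genes of the list vary together across libraries, as described below, so this and later counts of directions are not counts of independent genes. With limma no gene of the list reached an adjusted p under 0.05, in a comparison where 13 of 14765 genes did (0.088%). At an unadjusted p under 0.05, 11 genes were higher, 8 S-phase and 3 mitotic, and 0 were lower, beside 5.45% of all genes higher and 7.69% lower. In data simulated at this size, the test recovered 13.5% of changes of 0.5 on the log2 scale and 77.5% of changes of 1. These rates are shares of 200 genes changed in the simulation. They were not measured for the genes of the list, which vary together, so they cannot say why none of those passed.

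Among the replication licensing genes, Mcm5 (chromosome 8, 75109528 to 75128439, GRCm38) had a lowest, median and highest level of 6.06, 8.32 and 11.7 FPKM in wild-type NMBA libraries, against 4.56, 5.16 and 5.82 FPKM in the 3 wild-type controls. Every NMBA library lay above every control, and the log2 fold change was 0.59 ± 0.14 (SE; limma, adjusted p = 0.147), the highest among the S-phase genes and the lowest p of the list. All 10 genes of origin licensing and the helicase had a positive value, with a median of 0.29. Mcm10 had 0.441, 0.576 and 0.699 FPKM under NMBA, against 0.236, 0.244 and 0.353 FPKM in the controls (log2 fold change 0.30 ± 0.09, limma adjusted p = 0.21). Cdc45, which joins MCM to form the active helicase, had 1.86, 2.05 and 2.56 FPKM under NMBA, against 1.38, 1.74 and 1.59 FPKM (0.29 ± 0.10, limma adjusted p = 0.248). For both genes the groups did not overlap. Mcm7 overlapped by 1 control, with 7.01, 8.69 and 8.98 FPKM under NMBA, against 5.83, 7.74 and 6.38 FPKM. Mcm3 and Mcm4 had log2 fold changes of 0.41 ± 0.17 and 0.22 ± 0.15. Cdt1, the loader of MCM, stood at the other end of this group, with 1.55, 2.56 and 3.86 FPKM under NMBA, against 2.11, 2.86 and 2.44 FPKM, and a log2 fold change of 0.02 ± 0.17. Gins2, a GINS subunit, ran from 1.54 to 5.68 FPKM under NMBA, against 2.4, 2.55 and 1.48 FPKM in the controls, and overlapped with all but the lowest of them (0.40 ± 0.32).

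Among the other S-phase genes, Rrm1 had 8.83, 12.3 and 17.2 FPKM under NMBA, against 8.41, 7.97 and 9.83 FPKM in the wild-type controls (log2 fold change 0.47 ± 0.19, limma adjusted p = 0.3). The groups overlapped at the low end of the NMBA libraries. Tk1, the thymidine kinase of the salvage pathway, had 2.01, 2.29 and 2.85 FPKM under NMBA, against 1.68, 1.94 and 1.97 FPKM, with no overlap (0.21 ± 0.10, limma adjusted p = 0.392). Pcna had 24.8, 32.7 and 37.8 FPKM under NMBA, against 23.3, 25.9 and 26.8 FPKM (0.32 ± 0.12, limma adjusted p = 0.281). Rrm2, the small subunit of ribonucleotide reductase, and Pola1, the catalytic subunit of polymerase alpha, had values of 0.23 and 0.17. Ccne1, Ccne2 and E2f1, the G1/S cyclins and the transcription factor, had values of 0.26, 0.09 and 0.19. In all, 4 genes of the list did not overlap between the groups, Mcm5, Mcm10, Cdc45 and Tk1, all S-phase genes higher under NMBA, and 0 were lower without overlap, beside 2.7% of all genes higher and 3.76% lower without overlap.

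The mitotic genes had a median of 0.23 and the S-phase genes one of 0.24. The mitotic median was 0.15 without wild-type NMBA replicate 1 and 0.31 without replicate 5, while the S-phase median stayed between 0.22 and 0.27 with each library left out. Mki67 had 4.49, 8.15 and 11.8 FPKM in wild-type NMBA libraries, against 5.55, 5.27 and 7.81 FPKM in wild-type controls, so the controls lay inside the NMBA range (log2 fold change 0.32 ± 0.24, limma adjusted p = 0.624). Top2a had 4.79, 7.52 and 10.1 FPKM, against 5.74, 4.69 and 6.13 FPKM (0.35 ± 0.20, limma adjusted p = 0.497). The 2 highest log2 fold changes of mitotic genes were those of Cdk1 and of Ndc80, a subunit of the complex that ties kinetochores to microtubules. Cdk1 had 1.89, 3.88 and 5.61 FPKM, against 2.01, 2.57 and 2.74 FPKM, with the lowest NMBA library below every control (0.46 ± 0.19, limma adjusted p = 0.3). Ndc80 had 1.85, 2.59 and 3.01 FPKM, against 1.44, 1.98 and 1.28 FPKM (0.46 ± 0.15, limma adjusted p = 0.227). Its complex partners Spc25 and Nuf2 had log2 fold changes of 0.27 and 0.20. Cyclins B1 and B2 (Ccnb1, Ccnb2), Plk1, a mitotic kinase, and Birc5, a subunit of the chromosomal passenger complex, had values of 0.23, 0.11, 0.28 and 0.39. Kif11, Cdc20 and Ube2c had values of 0.34, 0.29 and 0.28, and the centromere proteins Cenpa and Cenpf 0.10 and 0.03. Anln, the scaffold protein anillin of the cleavage furrow, was the single gene of the list below 0, with 2.47, 5.12 and 7.2 FPKM under NMBA, against 6.75, 4.46 and 5.31 FPKM (-0.19 ± 0.20, limma adjusted p = 0.757).

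**Figure D2:**
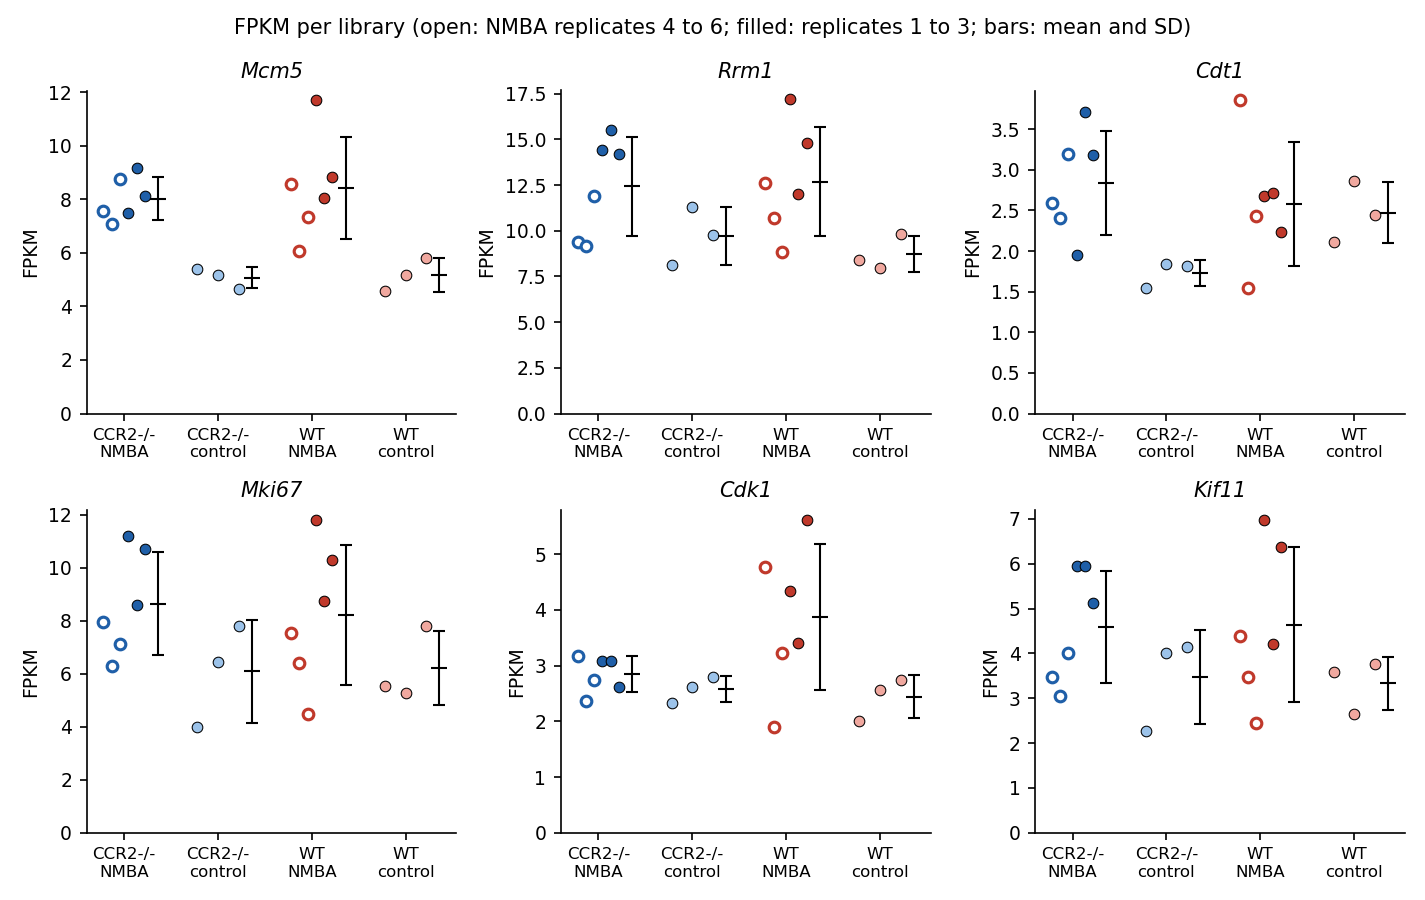
FPKM of Mcm5, Rrm1, Cdt1, Mki67, Cdk1 and Kif11 in each library (points, open for NMBA replicates 4 to 6 and filled for replicates 1 to 3) by group (horizontal axis), with the mean and SD as bars. For Mcm5 every NMBA point is above every control of its genotype, while Mki67 and Kif11 overlap and their open NMBA points lie low.

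The NMBA libraries of each genotype bear 2 code letters in their titles, 1 for replicates 1 to 3 and 1 for replicates 4 to 6, whose meaning is not stated. Taken separately against the same 3 controls, wild-type replicates 4 to 6 gave a median of 0.02 over the mitotic genes, with 18 of 32 above 0, and replicates 1 to 3 a median of 0.42, with 31 of 32 above 0. Over the S-phase genes, replicates 4 to 6 gave a median of 0.20, with 19 of 20 above 0, and replicates 1 to 3 a median of 0.30, with 20 of 20 above 0. Both sets share their control libraries. With replicates 1 to 3 alone, Mcm5 (log2 fold change 0.76, limma adjusted p = 0.0311) and Kif23, a kinesin of the spindle midzone (0.65, adjusted p = 0.045), passed the threshold. In that setting 158 of all genes passed, against 13 with all libraries. With wild-type NMBA replicate 5 left out, Mcm5 again passed (0.67, limma adjusted p = 0.041), where 30 of all genes did. No gene of the list passed with any other single library left out. Genes of smooth and striated muscle had lower values under NMBA in wild type for 12 of 13 markers tested (median -0.83), with summed levels of 3089 to 6478 FPKM in NMBA against 6970 to 10064 FPKM in control libraries. Markers of basal squamous cells were above 0 for 7 of 9 (median 0.09) with sums of 450 to 957 FPKM in NMBA against 381 to 401 FPKM in control libraries. Much of these sums came from 1 marker, Krt5, at 326 to 781 FPKM in NMBA against 228 to 240 FPKM in control libraries. T cell markers were above 0 for 12 of 13 (median 0.44), with sums of 24.8 to 41.5 FPKM in NMBA against 24.3 to 34.6 FPKM in control libraries. With limma 7 of them were higher at an unadjusted p under 0.05, beside 5.45% of all genes. Glandular stomach markers were above 0 for 12 of 12 (median 0.65), with sums of 8673 to 47931 FPKM in NMBA against 4628 to 52732 FPKM in control libraries. Fibroblast markers were below 0 for 9 of 9 (median -0.41), with sums of 287 to 794 FPKM in NMBA against 623 to 673 FPKM in control libraries. None of these lists had a marker at 0 in all libraries, and their part in the differences of the proliferation genes was not tested.

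The same comparison was then made in CCR2-/- mice. Under NMBA 48 of 52 genes had a log2 fold change above 0 (49.3% of all genes), with a median of 0.19, beside -0.00 for all genes. None passed the test, where 3 of all genes did (0.0203%), and limma gave an unadjusted p under 0.05 for 5 genes, 4 S-phase and 1 mitotic, all higher, and for 0 genes lower, beside 5.2% of all genes higher and 6.18% lower. The S-phase genes were above 0 for 17 of 20 (median 0.16) and the mitotic genes for 31 of 32 (median 0.22).

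Mcm5 was again the S-phase gene furthest apart, with 7.07, 7.85 and 9.15 FPKM in CCR2-/- NMBA libraries, against 5.39, 5.18 and 4.64 FPKM in CCR2-/- controls. The groups did not overlap, and the log2 fold change was 0.57 ± 0.14 (limma, adjusted p = 0.2). Cdt1, level in wild type, had 1.95, 2.88 and 3.71 FPKM under NMBA in CCR2-/- mice, against 1.54, 1.84 and 1.81 FPKM, again without overlap (0.48 ± 0.17, limma adjusted p = 0.35). Mcm7 had 7.81, 8.09 and 8.52 FPKM, all above the controls at 7.71, 7.01 and 6.8 FPKM. Pole, the catalytic subunit of polymerase epsilon, and Aurkb, the kinase of the passenger complex, also did not overlap. Pole had 0.47, 0.612 and 0.834 FPKM, against 0.338, 0.467 and 0.443 FPKM (0.19 ± 0.10). Aurkb had 2.1, 2.25 and 2.58 FPKM, against 1.2, 1.86 and 2.08 FPKM (0.29 ± 0.16). These 5 genes, all higher, stood beside 3.41% of all genes higher without overlap.

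The 2 highest values of mitotic genes in CCR2-/- mice were those of Cdc20 and Mki67. Cdc20 had 10.3, 13.0 and 18.7 FPKM under NMBA, against 8.65, 7.88 and 10.6 FPKM, with the highest control inside the NMBA range (log2 fold change 0.54 ± 0.23, limma adjusted p = 0.403). Mki67 had 6.31, 8.26 and 11.2 FPKM, against 4.0, 6.46 and 7.82 FPKM (0.46 ± 0.24, limma adjusted p = 0.485). Top2a had 5.63, 6.49 and 8.59 FPKM, against 3.37, 5.99 and 6.09 FPKM (0.38 ± 0.20, limma adjusted p = 0.486). In both marker genes the lowest value of all 6 NMBA libraries was above the lowest control, and replicate 1 of the controls was the lowest library. Ube2c, Rrm2 and Mcm4 had log2 fold changes of 0.42, 0.41 and 0.35, Rrm1 had 0.31 and Cdk1 had 0.10.

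Gins2, Pcna, Anln and Mcm6 had values below 0 in CCR2-/- mice. Gins2 had 1.62, 2.97 and 4.65 FPKM under NMBA, against 6.32, 2.75 and 4.9 FPKM, with 2 of 3 controls above every NMBA library (log2 fold change -0.49 ± 0.32, limma adjusted p = 0.558). Pcna had 25.4, 27.2 and 30.6 FPKM, against 27.9, 33.8 and 25.4 FPKM (-0.06 ± 0.12). Anln was at -0.08 ± 0.20, and Mcm6, from the group of origin licensing and helicase genes, was close to 0 (-0.01 ± 0.15).

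Taken separately against the same CCR2-/- controls, replicates 4 to 6 gave a mitotic median of 0.07, with 27 of 32 above 0, and replicates 1 to 3 a median of 0.30, with 31 of 32 above 0. The S-phase medians were 0.14 with replicates 4 to 6 and 0.16 with replicates 1 to 3.

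The mitotic values in CCR2-/- mice depended on 1 control library. Replicate 1 of the CCR2-/- controls was the lowest of its group for 30 of 32 mitotic genes, and without it the median of the mitotic genes was 0.07, with 26 of 32 above 0. The same library had the highest mean z of the muscle markers of all 18 (1.46). In CCR2-/- mice 13 of 13 muscle markers were lower under NMBA (median -0.60), with sums of 1875 to 7310 FPKM in NMBA against 5865 to 10203 FPKM in control libraries, and 8 of 9 basal squamous markers were above 0 (median 0.31), with sums of 532 to 966 FPKM against 352 to 387 FPKM. Krt5 again made up much of the basal sums, at 376 to 739 FPKM in NMBA against 214 to 238 FPKM in control libraries. T cell markers were above 0 for 12 of 13 (median 0.26), with sums of 24.4 to 42.7 FPKM in NMBA against 27.9 to 36.7 FPKM in control libraries. Glandular stomach markers were below 0 for 11 of 12 (median -1.04), with sums of 6188 to 67500 FPKM against 27005 to 44566 FPKM, and fibroblast markers for 8 of 9 (median -0.17), with sums of 250 to 796 FPKM against 537 to 801 FPKM. Their part in these values was not tested.

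**Figure D3:**
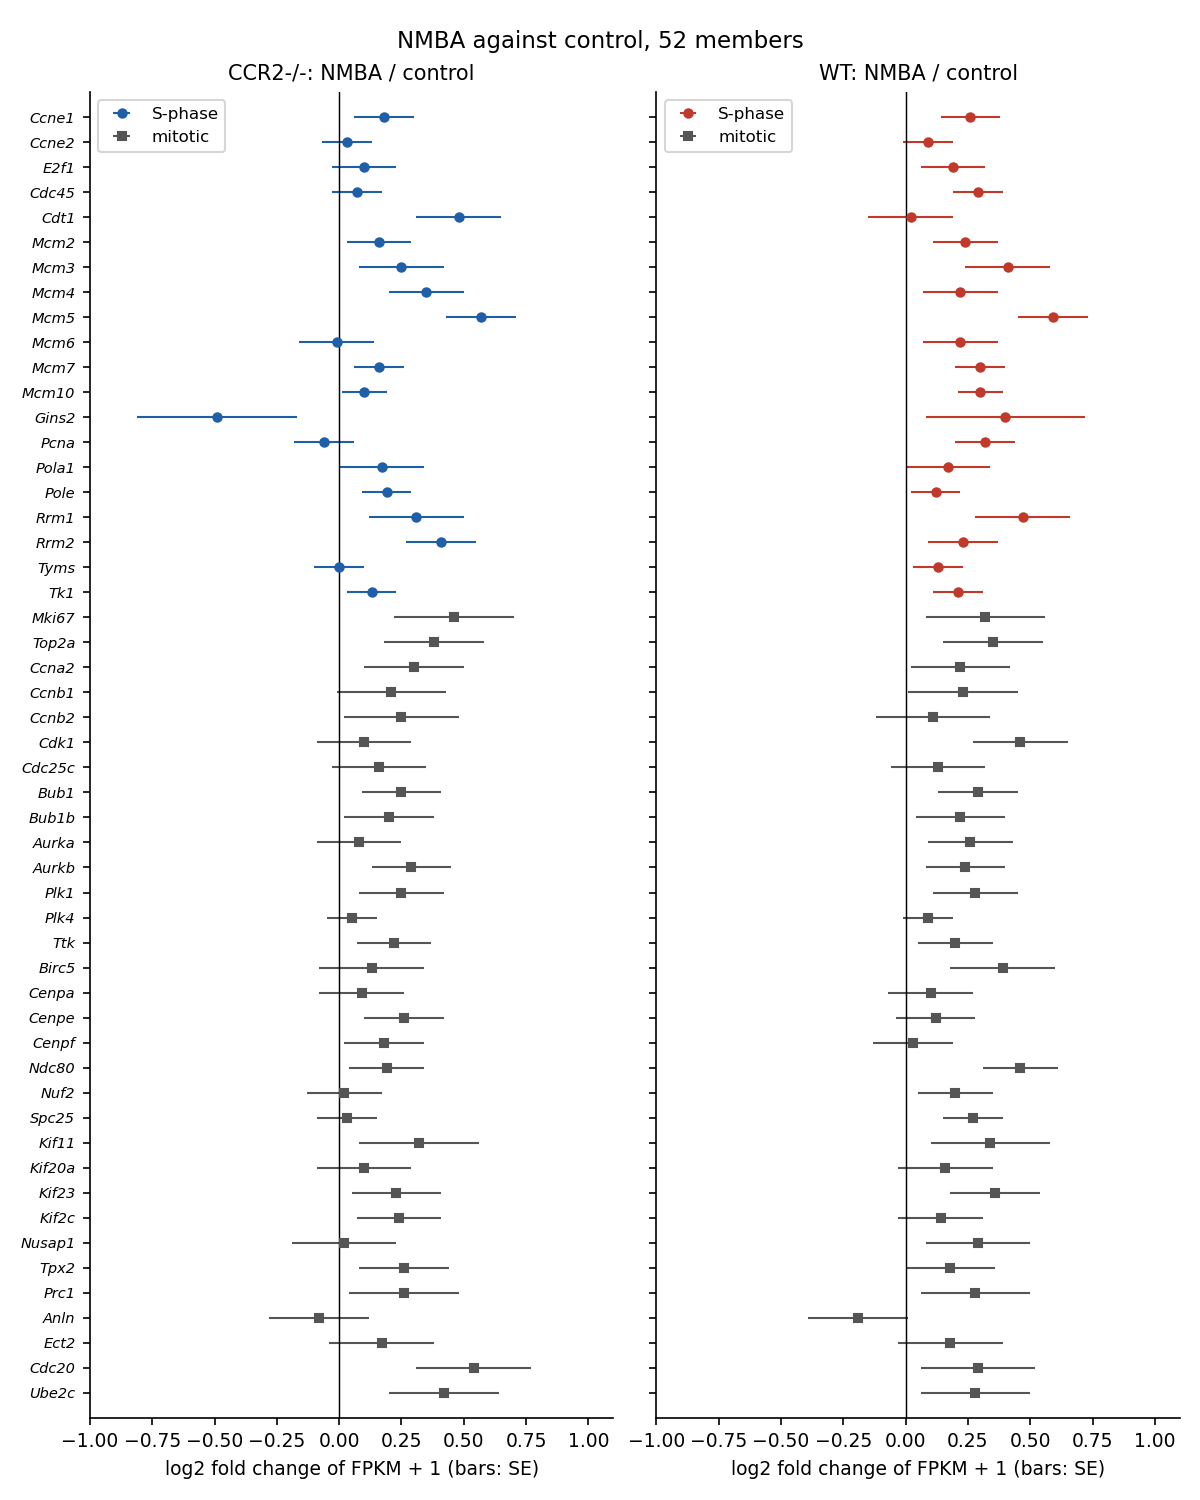
Log2 fold change of NMBA over control for each of the 52 genes in CCR2-/- and in wild-type mice, with standard errors (bars) and colour and shape giving the phase. Points lie between -0.49 and 0.59, and Mcm5 is near 0.6 in both genotypes.

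Whether loss of CCR2 went with other levels of these genes was asked under NMBA and in the controls. Under NMBA the CCR2-/- libraries had slightly lower values for 43 of 52 genes (45.9% of all genes) and higher values for 9 (54.1% of all genes). The lower values were those of 28 of 32 mitotic with a median of -0.13 and 15 of 20 S-phase with a median of -0.04. Without wild-type NMBA replicate 1 the mitotic median was -0.06 (25 of 32 lower), and without replicate 5 it was -0.21. The S-phase median ran from -0.07 (without CCR2-/- NMBA replicate 2) to -0.01 (without wild-type NMBA replicate 1), with 11 to 16 genes lower. None passed the test, where 7 of all genes did (0.0474%). A single gene had an unadjusted p under 0.05 with limma, lower, beside 3.9% of all genes lower, and no gene was without overlap, beside 0.203% of all genes lower without overlap. That gene was Spc25, with 1.34, 1.62 and 1.94 FPKM in CCR2-/- NMBA libraries, against 1.63, 2.16 and 2.82 FPKM in wild-type NMBA libraries. The ranges overlapped between 1.63 and 1.94 FPKM (log2 fold change -0.27 ± 0.10, limma adjusted p = 0.669). Cdk1 had 2.36, 2.91 and 3.18 FPKM in CCR2-/- NMBA libraries, against 1.89, 3.88 and 5.61 FPKM, all inside the wild-type range (-0.30 ± 0.15, limma adjusted p = 0.73). Pcna had 25.4, 27.2 and 30.6 FPKM, against 24.8, 32.7 and 37.8 FPKM, likewise inside it (-0.20 ± 0.10, limma adjusted p = 0.73). Ccne1 was at -0.15 ± 0.10. At the other end stood Cdt1 (0.11 ± 0.14), Mcm4 (0.08 ± 0.12), Mki67 (0.09 ± 0.20) and Prc1, a cross-linker of midzone microtubules (0.03 ± 0.18). With replicates 4 to 6 only, 27 of 52 genes were below 0, and with replicates 1 to 3 only, 46 were, among them 32 of 32 mitotic genes. Basal squamous markers were higher in CCR2-/- NMBA libraries for 8 of 9 (median 0.17), with sums of 532 to 966 FPKM against 450 to 957 FPKM in wild-type NMBA libraries, and their part in these values was not tested.

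In the controls the CCR2-/- libraries were higher for 23 and lower for 29 of 52 genes (49.6% and 50.4% of all genes). With limma no gene of the list passed, where 1 of all genes did (0.00677%), and Gins2 alone had an unadjusted p under 0.05, higher, beside 2.81% of all genes higher and 2.3% lower. Gins2 had 6.32, 2.75 and 4.9 FPKM in CCR2-/- controls, against 2.4, 2.55 and 1.48 FPKM in wild-type controls, without overlap (log2 fold change 0.81 ± 0.37, limma adjusted p = 0.947). Tk1 was also higher without overlap, beside 4.47% of all genes, and Cdt1 and Kif2c, a microtubule-depolymerizing kinesin, were lower without overlap, beside 4.74% of all genes. Of the mitotic genes 24 of 32 were lower, but without CCR2-/- control replicate 1 this was 13 of 32. Glandular stomach markers were higher in CCR2-/- controls for 11 of 12 (median 1.55), with sums of 27005 to 44566 FPKM in CCR2-/- against 4628 to 52732 FPKM in wild-type controls, and their part in these values was not tested.

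The difference between the NMBA responses of CCR2-/- and wild-type mice was tested directly as an interaction. It was below 0 for 33 of 52 genes (47.2% of all genes) and above 0 for 19 (52.8% of all genes). No gene of the list and none of all genes passed (0%), and limma gave an unadjusted p under 0.05 for Pcna alone, lower, beside 2.58% of all genes lower (difference of log2 fold changes -0.38 ± 0.17, adjusted p = 0.893). Gins2 (-0.89 ± 0.46) and Cdt1 (0.45 ± 0.24) had the lowest and the highest difference, each with an adjusted p of 0.893. For CCR2-/- against wild type, these 2 genes were at 0.81 and -0.34 in the controls, but at -0.08 and 0.11 under NMBA. For Mcm5 the difference was -0.02 ± 0.20 (limma adjusted p = 0.99).

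The mean z score per library, a description with no test, set the S-phase genes beside the mitotic genes. The S-phase mean z was 0.23 ± 0.46 in CCR2-/- NMBA libraries against -0.51 ± 0.27 in CCR2-/- controls (SD, n = 6 and 3), and 0.43 ± 0.66 in wild-type NMBA against -0.81 ± 0.25 in wild-type controls. The mitotic mean z was 0.02 ± 0.48 in CCR2-/- NMBA against -0.68 ± 0.77 in CCR2-/- controls, and 0.48 ± 1.08 in wild-type NMBA against -0.32 ± 0.06 in wild-type controls. The S-phase score of every NMBA library was above that of every control of its genotype, whereas the mitotic score overlapped in both genotypes. The S-phase separation was narrow. The lowest NMBA and the highest control score were -0.08 and -0.22 in CCR2-/- mice, and -0.54 and -0.62 in wild-type mice. The summed FPKM of both phases overlapped between NMBA and control libraries in both genotypes. The S-phase genes summed to 92.3 to 119 FPKM in CCR2-/- NMBA against 84.9 to 96.7 FPKM in CCR2-/- control libraries, and to 84.8 to 124 FPKM in wild-type NMBA against 76.7 to 85.7 FPKM in wild-type control libraries. The mitotic genes summed to 104 to 136 FPKM against 75.6 to 111 FPKM in CCR2-/- mice, and to 92.2 to 180 FPKM against 105 to 111 FPKM in wild-type mice.

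**Figure D4:**
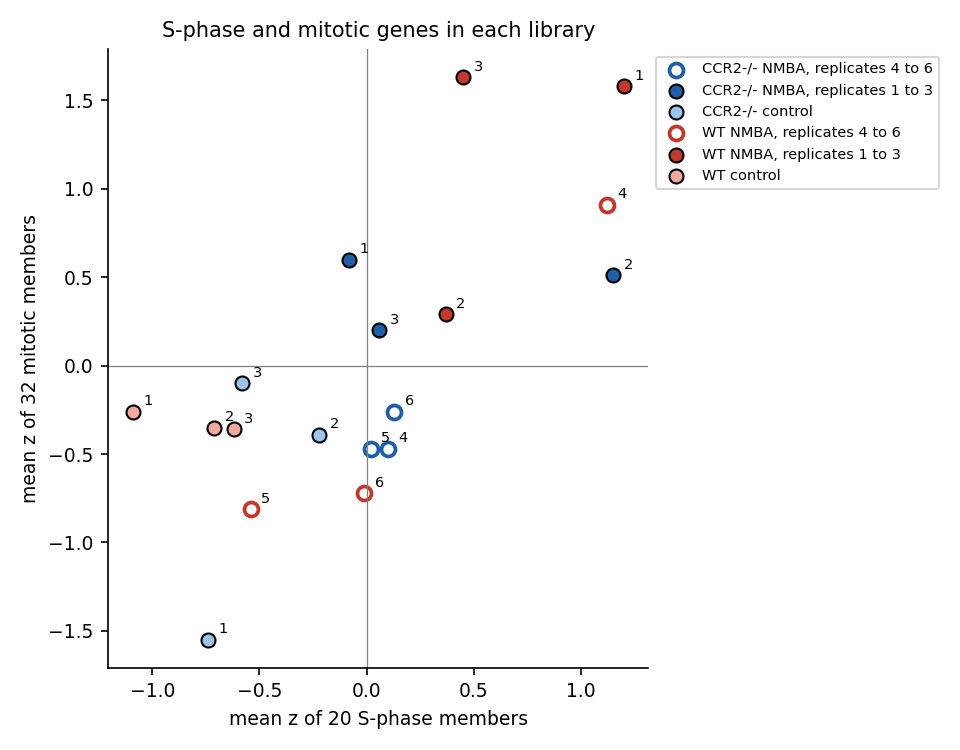
Each point is 1 of the 18 libraries, with the mean z of log2(FPKM + 1) over the 20 S-phase genes on the horizontal and over the 32 mitotic genes on the vertical axis, coloured by group and numbered by replicate, open for NMBA replicates 4 to 6. In wild-type NMBA libraries the mitotic score runs from -0.81 to 1.63, while the 3 wild-type controls lie between -0.36 and -0.26.

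In wild-type NMBA libraries the median SD of log2(FPKM + 1) was 0.37 for mitotic genes, 0.18 for S-phase genes and 0.22 for all genes, and in CCR2-/- NMBA libraries 0.19, 0.16 and 0.20. Wild-type NMBA replicates 1 and 3 held the highest value of 30 of 32 mitotic genes, and replicates 5 and 6 the lowest of 31. The 2 sets were not separated in wild-type mice, since replicate 4 had a mitotic mean z of 0.91 and replicate 2 one of 0.29. In CCR2-/- NMBA libraries, replicates 1 to 3 held the highest value of 30 of 32 mitotic genes. Replicate 2 held the highest of 14 of 20 S-phase genes.

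Compared directly, wild-type NMBA replicates 4 to 6 were lower than replicates 1 to 3 for 31 of 32 mitotic genes, with a median log2 fold change of -0.39, and for 16 of 20 S-phase genes, with a median of -0.07. For all genes 58.4% were lower and the median was -0.04. With each library left out, the mitotic median ran from -0.55 (without replicate 4) to -0.27 (without replicate 5), and the S-phase median from -0.21 (without replicate 4, 17 genes lower) to -0.04 (without replicate 5, 11 genes lower). With limma none of the list and none of all genes passed (0%), and 19 genes of the list, 16 mitotic and 3 S-phase, had an unadjusted p under 0.05, all lower, and 0 higher, beside 5.73% of all genes lower and 2.98% higher. The genes of the spindle, midzone and cytokinesis were lower for 9 of 9, with a median of -0.52. Mki67 had 7.55, 6.41 and 4.49 FPKM in replicates 4 to 6, against 11.8, 8.76 and 10.3 FPKM in replicates 1 to 3. The sets did not overlap, and the log2 fold change was -0.67 ± 0.21 (limma adjusted p = 0.473). Prc1 had 2.01, 1.49 and 0.978 FPKM, against 3.75, 2.33 and 2.81 FPKM, again apart (-0.68 ± 0.19, limma adjusted p = 0.407). Kif23 had 4.63, 2.92 and 3.42 FPKM, against 6.41, 4.66 and 6.71 FPKM (-0.58 ± 0.14, limma adjusted p = 0.407). Kif11 overlapped narrowly, with 4.4, 3.48 and 2.45 FPKM, against 6.97, 4.2 and 6.37 FPKM (-0.62 ± 0.21, limma adjusted p = 0.483). Without overlap and lower were 10 genes of the list, 8 mitotic and 2 S-phase, beside 7.11% of all genes.

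A few genes did not share this direction. Spc25 was the single mitotic gene above 0 (log2 fold change 0.04 ± 0.15, limma adjusted p = 0.772). Plk1 had 6.48, 6.13 and 4.19 FPKM in wild-type replicates 4 to 6, against 6.06, 5.02 and 5.56 FPKM in replicates 1 to 3. Gins2 had 5.68, 1.91 and 5.0 FPKM, against 3.24, 1.54 and 2.78 FPKM (0.51 ± 0.36, limma adjusted p = 0.657). Mcm5, in contrast, was lower in replicates 4 to 6, with a log2 fold change of -0.33 ± 0.15 (limma adjusted p = 0.562).

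In CCR2-/- mice NMBA replicates 4 to 6 were likewise lower than replicates 1 to 3 for 31 of 32 mitotic genes (median -0.26) and for 13 of 20 S-phase genes (median -0.06), beside 52.7% and -0.02 for all genes. With each library left out, the S-phase median ran from -0.11 (without replicate 1) to 0.01 (without replicate 2), with 10 to 17 genes lower, and the mitotic median from -0.26 to -0.22. Over both phases 8 of 52 genes were higher, beside 47.3% of all genes. With limma none passed (0%), and 6 genes of the list had an unadjusted p under 0.05, all lower, beside 5.53% of all genes lower. Without overlap and lower were 15 genes, 13 mitotic and 2 S-phase, beside 11.1% of all genes, and 0 were higher, beside 7.31% of all genes. Mki67 had 7.94, 6.31 and 7.13 FPKM in replicates 4 to 6, against 11.2, 8.58 and 10.7 FPKM in replicates 1 to 3, without overlap (log2 fold change -0.45 ± 0.21, limma adjusted p = 0.47). Kif11 had 3.48, 3.06 and 4.02 FPKM, against 5.94, 5.94 and 5.12 FPKM, also apart (-0.56 ± 0.21, limma adjusted p = 0.417). Rrm1, an S-phase gene, had 9.38, 9.15 and 11.9 FPKM, against 14.4, 15.5 and 14.2 FPKM (-0.50 ± 0.16, limma adjusted p = 0.389). In wild-type mice the 24 genes with a CHR in the promoter window had a median of -0.38 in this comparison, and the 19 without one -0.15. In CCR2-/- mice these medians were -0.24 and -0.08. Of the 24 genes with a CHR, 21 are mitotic, so this split largely repeats the one by phase. The 12 genes with an E2F motif had a median of -0.11 in CCR2-/- and -0.35 in wild-type mice, and the 31 without one -0.16 and -0.30.

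**Figure D5:**
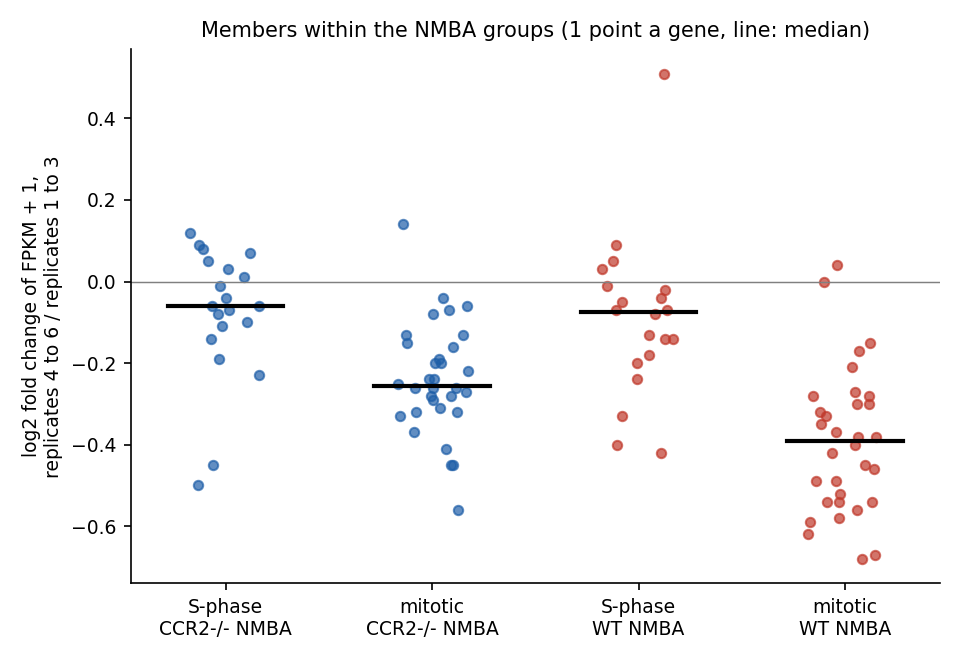
Log2 fold change of NMBA replicates 4 to 6 over replicates 1 to 3 (vertical axis) for each S-phase and mitotic gene in CCR2-/- and in wild-type mice, 1 point a gene, with the median as a line. The medians of the mitotic genes, -0.26 in CCR2-/- and -0.39 in wild-type mice, lie below those of the S-phase genes, -0.06 and -0.07.

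In the mean z scores, the mitotic genes were at -0.40 in replicates 4 to 6 against 0.44 in replicates 1 to 3 of CCR2-/- mice, and at -0.21 against 1.17 in wild-type mice. The S-phase genes were at 0.08 against 0.38 in CCR2-/- mice and at 0.19 against 0.67 in wild-type mice.

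Other tissue markers differed between the replicate sets as well. The glandular stomach markers were higher in replicates 4 to 6 for 12 of 12 genes in both genotypes, with medians of 1.24 in CCR2-/- and 1.55 in wild-type mice. Their summed level was 8116 to 67500 FPKM in replicates 4 to 6 against 6188 to 20866 FPKM in replicates 1 to 3 of CCR2-/- mice, and 25731 to 47931 FPKM against 8673 to 11622 FPKM in wild-type mice. The basal squamous markers summed to 532 to 810 FPKM against 652 to 966 FPKM in CCR2-/- mice, and to 450 to 600 FPKM against 684 to 957 FPKM in wild-type mice. Muscle markers were higher in CCR2-/- replicates 4 to 6 for 13 of 13 (median 0.84), with sums of 5800 to 7310 FPKM against 1875 to 5204 FPKM. With limma 8 of them had an unadjusted p under 0.05, beside 4.99% of all genes higher. Without overlap were 7, beside 7.31% of all genes higher. In wild-type mice the muscle markers were higher for 10 of 13 (median 0.06), with sums of 3089 to 6478 FPKM against 4107 to 4822 FPKM. T cell markers were lower in wild-type replicates 4 to 6 for 13 of 13 (median -0.33), with sums of 24.8 to 41.5 FPKM against 34.1 to 39.7 FPKM. Macrophage markers were lower there for 11 of 12 (median -0.25), with sums of 218 to 367 FPKM against 279 to 334 FPKM. No marker of these lists was at 0 in all libraries, and their part in the lower mitotic levels was not tested.

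Deviations from the group means tied the mitotic genes together across the 18 libraries. As a description, since pairs of genes share libraries and depth, the median r between mitotic genes was 0.66, with 490 of 496 pairs positive. It was 0.35 between S-phase genes, 0.35 between S-phase and mitotic genes, and 0.03 between all pairs of genes tested. The genes closest to the mitotic genes were the kinesins Kif20a (median r 0.83) and Kif11 (0.80), the spindle assembly factor Tpx2 (0.79) and Top2a (0.79), and Mki67 was at 0.73. The least tied mitotic gene was Plk1 (0.22), then Spc25 (0.42), Anln (0.47) and Birc5 (0.48). Of the S-phase genes, Rrm1 (0.74) and Pola1 (0.70) were closest to the mitotic genes, and Ccne1 (-0.18) and E2f1 (-0.05) furthest from them.

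Further genes of the pathway came from lists of replication, mitotic and G1 genes outside the 52. Of 31 other replication genes tested, 21 were above 0 under NMBA in CCR2-/- (median 0.13, 7 at an unadjusted p under 0.05, limma) and 27 in wild-type mice (median 0.16, 10 at an unadjusted p under 0.05), beside 49.3% and 48.2% of all genes. Of 45 other mitotic genes, 41 were above 0 in CCR2-/- (median 0.16, 3 at that p) and 40 in wild-type mice (median 0.18, 2 at that p). All genes counted at that p were higher, beside 5.2% of all genes higher in CCR2-/- and 5.45% in wild-type mice. The counts of other mitotic genes at that p lay near these shares. In NMBA replicates 4 to 6 against 1 to 3, 42 of 45 other mitotic genes were lower in each genotype, with medians of -0.22 in CCR2-/- and -0.33 in wild-type mice, and 23 of 31 other replication genes were lower in CCR2-/- (median -0.06) and 21 of 31 in wild-type mice (median -0.05), beside 52.7% and 58.4% of all genes. None of these genes passed the adjusted threshold. Among 17 G1 cyclins, CDKs and genes of the RB-E2F group, Cdk4, the kinase partner of cyclin D, averaged 27.9 ± 2.71 FPKM in wild-type NMBA and 21.7 ± 4.49 FPKM in wild-type control libraries (SD, n = 6 and 3; log2 fold change 0.36 ± 0.12, limma adjusted p = 0.254). Ccnd1, cyclin D1, was at 0.08. The CDK inhibitors were lower in CCR2-/- than in wild-type NMBA libraries for 7 of 7 genes tested (median -0.18), beside 45.9% of all genes. In the controls they were likewise lower in CCR2-/- libraries for 6 of 7 (median -0.16), beside 50.4% of all genes. Under NMBA Cdkn1b was at -0.17 and Cdkn1a at -0.07, and no CDK inhibitor passed.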

How the data were processed

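The expression values were FPKM per gene and library, deposited by the authors in 1 table of 18 libraries; the submitters' processing notes name mm10, GRCm38 and DESeq2, and the aligner and counter are not given in the sources used here. Libraries were prepared with a TruSeq kit. FPKM is not a count, so limma 3.58.1 in R 4.3.3 was fitted to log2(FPKM + 1) with 4 groups as 1 factor, letting the spread follow mean expression. Tests were two-sided, with Benjamini-Hochberg adjustment over the 14765 reference genes that reached 0.5 FPKM in at least 3 libraries, at a threshold of 0.05. Replicates 4 to 6 and 1 to 3 of the NMBA groups were compared in a fit of 6 groups. Fold changes are on the log2(FPKM + 1) scale, which understates those of low genes. Depth is unknown: relative depth was read from the step between low values and ran from 0.991 to 1.37. Entries that join several symbols (646) share reads between genes. Python 3.11.15 with pandas 2.3.3 and matplotlib 3.10.9 did the rest. The fit was tested on simulated data with 200 genes changed.

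Members and lists were chosen with earlier results of these data known. The genes named were Mki67, Top2a, the 2 highest by mean FPKM in each role, and the 2 highest and 2 lowest log2 fold changes of each phase in the NMBA and NMBA genotype comparisons. Mcm10, Mcm3, Mcm6, Cdc45, Tk1, Pole, Aurkb, Kif23, Kif20a, Kif2c and Tpx2 were named after their values were seen. Columns of every library were used. The alternatives were pseudocounts of 0.1 and 0.5, no filter or 1 FPKM in 6 libraries, quantile and median-ratio scaling, only the groups compared, library weights, a replicate block, a threshold of 0.10, no shared entry, NMBA replicates 1 to 3 or 4 to 6 alone, no Pgc-rich libraries, and each library left out.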

Additional observations from a re-analysis of the deposited data

Results flagged for a closer look

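Of 62 groups of values tested for 1 library that stands apart, 1 did so. The S-phase mean z of CCR2-/- NMBA replicate 2 was 1.15, far above the other 5 libraries of its group, which lay between -0.08 and 0.13, with a gap over Dixon's 95% limit of 0.625 for 6 samples. Chance alone marks about 1 in 20 such groups. The mitotic mean z of this library was 0.51, inside the range of its group.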

How the results depend on the processing

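Of 2071 values of single genes under the alternatives, 2028 kept their direction and side of the threshold. Genes of the list called in wild-type mice under NMBA were 1 with the replicate block (Mcm5), 2 with NMBA replicates 1 to 3 only, and 0 to 1 with each library left out. In CCR2-/- mice 1 was called with library weights and 1 with the block (Mcm5 in both), and the mitotic median was 0.37 with the block, 0.07 with replicates 4 to 6 only and 0.07 to 0.31 with each library left out. Deviations of same-numbered libraries from their group means correlated at r of -0.404 to 0.429. Differently numbered libraries were not compared in this way, so these values cannot tell whether the numbers pair the libraries. The block could not be fitted for the replicate sets. Control libraries have no replicates 4 to 6, so with the block NMBA against control rested mainly on replicates 1 to 3. It is therefore not independent of the setting with replicates 1 to 3 only. Library weights called 8 genes in wild-type replicates 4 to 6 against 1 to 3 (Mki67, Kif11, Bub1, Bub1b, Cenpe, Cenpf, Kif23 and Prc1), where they called 2527 of all genes and were fitted without reaching convergence, and left 10 S-phase genes below 0.

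With replicates 4 to 6 only, 18 mitotic genes were above 0 in wild-type mice, where Mki67 was at -0.02, Pola1 -0.03, Cenpf -0.18, Ccnb1 -0.06, Ccnb2 -0.08 and Cenpa -0.06. In that setting, for CCR2-/- against wild type under NMBA, 27 genes and 8 S-phase genes were below 0, and in the difference of responses 9 mitotic genes were below 0 and Mcm5 was at 0.11. Without the Pgc-rich libraries, Ccnb2 was at -0.02 and Cenpa at -0.05. Anln in CCR2-/- mice was at 0.03 with the block. For CCR2-/- against wild type under NMBA, Prc1 was at -0.01 with quantile scaling, -0.15 with weights and -0.17 with replicates 1 to 3 only, and Mki67 at -0.11 with weights and -0.01 with replicates 1 to 3 only. In the controls, quantile scaling and weights each put 8 S-phase genes below 0. In the difference of responses, weights gave a median of -0.16 over all members and -0.17 over the mitotic genes, 29 of them below 0.

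With each library left out, ranges were -0.07 to 0.12 for Cdt1, -0.06 to 0.13 for Cenpf, -0.02 to 0.29 for Ccnb2 and -0.05 to 0.27 for Cenpa in wild-type mice, and -0.15 to 0.05 for Pcna in CCR2-/- mice. For CCR2-/- against wild type under NMBA they were -0.04 to 0.20 for Mki67 and -0.10 to 0.15 for Prc1. In the controls, genes below 0 numbered 19 to 35, with 5 to 8 S-phase and 13 to 28 mitotic, and in the difference of responses 8 to 26 mitotic, with Mcm5 between -0.10 and 0.07. Where causes are not named above, the cause was not tested.

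Over all genes, the calls under NMBA in wild-type mice were 13, against 26 with a pseudocount of 0.1, 31 with weights, 278 with the block, 158 with replicates 1 to 3 and 3 with replicates 4 to 6. In CCR2-/- mice they were 3, against 1 with median-ratio scaling or only the groups compared, 138 with weights, 294 with the block, 224 with replicates 1 to 3 and 0 with replicates 4 to 6. Under NMBA the genotypes gave 7, against 3 with only the groups compared or replicates 1 to 3 and 1 with replicates 4 to 6. In the controls they gave 1, against 3 with only the groups compared, 2 with weights and 4 with replicates 1 to 3. The replicate sets gave 0 in both genotypes, against 6 (wild type) and 2 (CCR2-/-) with no filter, 4 in wild type with only the groups compared, and 14 in CCR2-/- with weights. With each library left out, calls over all genes ran from 1 to 30 for NMBA in wild-type mice (30 without NMBA replicate 5), 0 to 6 in CCR2-/- mice, 4 to 13 between genotypes under NMBA and 1 to 6 in the controls.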
